A study of Sus scrofa with 2 samples.

Results

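The genes described here are 9 genes of B cell identity and the germinal centre, BCL6, BACH2, EBF1, PAX5, SWAP70, TNFRSF13C, CD40, FCER2 and CD79A, out of 19550 protein-coding genes on the placed chromosomes of the pig genome. They were chosen by name with earlier results from the same loop table in view, most of them on having loops, so the loop counts and contact values below are descriptions with no test. The data came from in situ Hi-C, which joins and sequences DNA fragments that lie near each other in fixed nuclei, on pig (Sus scrofa) spleen. There was a single group of 2 replicates, for which the labels name the tissue and give no breed, age, sex or treatment. The tables were 1 list of 3410 loops, pairs of 25 kb bins (anchors) that touch more often than their surroundings, and 1 list of 1927 topologically associating domains (TADs, stretches that contact themselves more than their flanks). Neither table is split by replicate, so no spread between replicates can be given. Each contact count below instead carries a 95% exact Poisson interval, which covers counting error only.

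B cells are the lymphocytes that make antibody. EBF1 and PAX5 set up and hold the B cell programme, and the receptor chain CD79A signals from the antigen receptor. In the germinal centre, activated B cells divide and mutate their antibody genes under the repressor BCL6, with help from T cells through CD40, while BAFF acting on its receptor TNFRSF13C keeps resting B cells alive. BACH2 delays the turn to plasma cells, SWAP70 is an actin-binding signalling adaptor of activated B cells, and FCER2 (CD23) is the low-affinity IgE receptor. Spleen is rich in B cells but holds many other cell types. In such bulk tissue, a loop in few cells and a weak loop in many cells cannot be told apart.

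Together the 9 genes had 12 loops with an anchor over the gene, 11 of them with an annotated gene end in the anchor and 1 with only the gene body. A gene end lay in an anchor for 7 of the 9, beside 17.3% of all protein-coding genes, and an anchor overlapped the gene for the same 7, beside 20.7%. The choice of genes fixed these counts. BCL6 and TNFRSF13C had 3 loops each at their ends, a number reached by 1.25% of protein-coding genes. In both genes a pair of these loops are touching pixels, so that each had 2 separate groups of pixels, and the 1.25% counts touching pixels singly too. SWAP70 had 2, and CD40, EBF1, FCER2 and BACH2 had 1 each. PAX5 and CD79A had none. The strand of the genes was not in the table used, so "lower" and "upper" end mean the end with the smaller and the larger coordinate, and a start site cannot be told from a 3′ end.

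**Figure D1:**
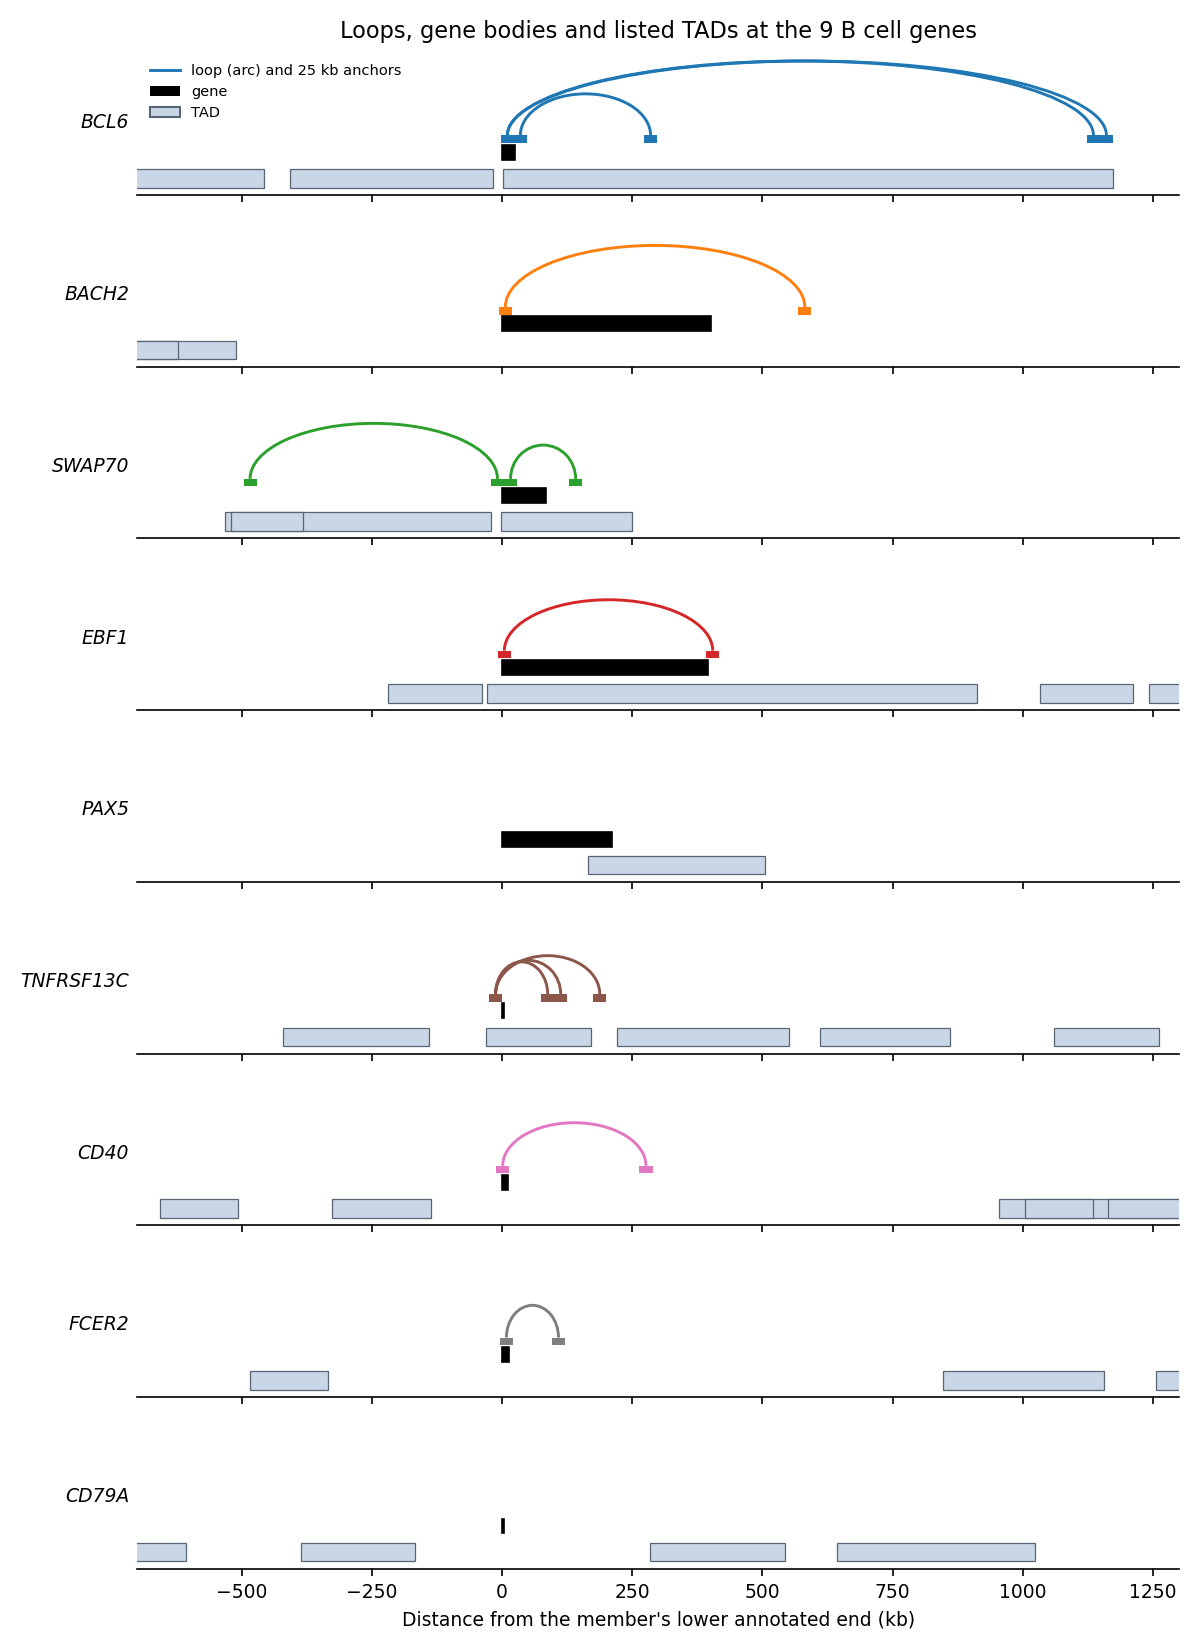
Each row shows 1 of the 9 genes, with distance in kb from its lower annotated end on the horizontal axis, the gene as a black bar, listed TADs as pale boxes and its loops as arcs between coloured 25 kb anchors. Arc height has no scale. BCL6 reaches across its TAD, EBF1 is joined end to end, and PAX5 and CD79A have no arc.

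BCL6, the transcriptional repressor that defines germinal centre B cells, lay on chromosome 13 from 125377247 to 125401328 (Sscrofa11.1), at the very start of a TAD of 1170 kb that ran from 125380001 to 126550000. That TAD was longer than 96.7% of all TADs, whose median was 260 kb. The lower end of BCL6 was 2.75 kb from the TAD edge, which is less than the 10 kb step in which TADs are listed. All 3 BCL6 loops pointed to the upper side, into the TAD. The shortest, from the upper end, spanned 250 kb to a bin from 125650001 to 125675000 that held no protein-coding gene. It had 114 contacts (interval 94 to 136.9) against 52.9 expected from the donut of surrounding pixels, a ratio of 2.15 (1.78 to 2.59). The other BCL6 loops left the lower end and crossed nearly the whole TAD.

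The loop of 1125 kb ended in the bin from 126500001 to 126525000 and had 77 contacts (60.8 to 96.2), a ratio of 2.21 (1.74 to 2.76). The loop of 1150 kb ended in the last bin of the TAD, from 126525001 to 126550000, with 85 contacts (67.9 to 105.1) and a ratio of 2.83 (2.26 to 3.5). These pixels touch each other, and their intervals overlap, so they cannot be separated into distinct contacts at this depth. The farther bin held an end of TPRG1, the only protein-coding gene end at the far side of any BCL6 loop. Between the anchors lay LPP, a gene of focal adhesions, and LOC106508360. With the TAD edge widened by 20 kb, the loop of 1150 kb joined both edges of the TAD.

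The BCL6 loops over 1 Mb had few loops of like span to be set beside. Within 25 kb of their spans there were 5 and 4 autosomal loops, with median contacts of 72 and 65 and median ratios of 2.45 and 2.8. Each of these sets held both BCL6 loops, so its medians rest partly on BCL6 itself. The ratio of the loop of 1150 kb was at the 62.5th percentile of its 4, and that of the loop of 1125 kb at the 10th percentile of its 5. The 81 autosomal loops of 1000 kb or longer are a wider set, not matched on span. Among these 81, the median loop had 33 observed contacts against 5.02 expected, and the quartiles of the ratio were 3.1 and 9.09. The BCL6 loops had 34.9 and 30.1 expected contacts, higher than 95.7% and 90.7% of these loops. Their observed contacts were above 83.3% and 88.3% of them, while their ratios were above only 1.85% and 15.4%. The 4 expected values also differed for BCL6. Against the horizontal neighbourhood, the pixels to the left and right, the 3 ratios were 1.48, 1.68 and 2.03, whereas against the vertical neighbourhood they were 2.3, 2.27 and 2.73. The horizontal ratio was the lower in all 3 BCL6 loops and in 9 of the 12 loops of the 9 genes, beside 51.1% of autosomal loops.

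On the other side of BCL6 lay a TAD of 390 kb from 124970001 to 125360000, with RTP4, SST (somatostatin) and RTP2, and the gap between the TADs was 20 kb. A loop of 300 kb within that side ended in the bin from 125350001 to 125375000, which stops 2.25 kb short of BCL6 and held an end of RTP2. It had 93 contacts and a ratio of 2.28. It is the nearest loop just outside the rule that chose the BCL6 loops, while the upper end of BCL6 lay 1328 bases inside its anchor. That loop ran away from BCL6 to lower coordinates, and those of BCL6 ran to higher ones. TPRG1 had 3 loops in all and shared 1 with BCL6, which gave the highest likeness of any gene to BCL6, a Jaccard index (shared loops over all loops of either gene) of 0.2. A loop of 150 kb from inside LPP, with 94 contacts and a ratio of 1.82, ended in the same bin as the loop from BCL6 to TPRG1.

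EBF1, the pioneer transcription factor of the B lineage, was the single protein-coding gene in its TAD and was joined by its loop from end to end. The gene covers 395.2 kb on chromosome 16 from 64357999 to 64753188. The lower end was in the anchor from 64350001 to 64375000 and the upper end in the anchor from 64750001 to 64775000, and the loop between them spanned 400 kb. It had 66 contacts (51 to 84) against 27.4 expected, a ratio of 2.41 (1.86 to 3.06). The upper end lay 3188 bases and the lower end 7999 bases inside their anchors. A loop between the ends of 1 gene was found for 0.302% of protein-coding genes, 59 in number, and for 1.51% of those of 75 kb or longer, a length set after the values were seen because the shortest listed loop cannot join nearer ends. EBF1 was the longest of the 59, ahead of SPIDR at 315.8 kb.

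The TAD of EBF1 ran from 64330001 to 65270000, 940 kb, longer than 94.3% of TADs. EBF1 began 28 kb from its lower edge and ended 516.8 kb from its upper edge, so the loop lay in the part of the TAD that the gene fills. No other loop was listed inside it. A gap of 10 kb separated it from a TAD of 180 kb with IL12B, a cytokine subunit, UBLCP1, LOC102162058 and RNF145. In that TAD a loop of 125 kb joined UBLCP1 to RNF145 with 131 contacts, ending 33 kb from EBF1.

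BACH2, the repressor that holds activated B cells back from the plasma cell fate, had a single loop that ran from its lower end past its upper end. The gene covers 400.5 kb on chromosome 1 from 57881203 to 58281740. The loop of 575 kb ended in the bin from 58450001 to 58475000, 168.3 kb beyond the upper end of BACH2, in a bin without a protein-coding gene. It had 77 contacts (60.8 to 96.2) against 39.3 expected, a ratio of 1.96 (1.55 to 2.45), above 2.68% of the 56 autosomal loops whose span was within 25 kb. Its contacts were above 72.3% of the same loops. GJA10, a connexin gene, overlaps the lower end of BACH2 and shared the loop (Jaccard index 1). MAP3K7, the kinase TAK1, was the next gene beyond the far anchor and had no loop. BACH2 lay in a stretch of 5270 kb without a listed TAD, and the nearest TAD ended 511.2 kb below it.

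PAX5, the factor that keeps B cells committed, had no anchor over any of its 210.5 kb on chromosome 1, from 237574938 to 237785454. On its upper side the nearest anchor lay 389.5 kb away, at ends of ZBTB5 and POLR1E. Of protein-coding genes of 200 kb or longer, 29.2% had an anchor over them. The ZBTB5 anchor had loops of 475 and 900 kb, with 59 and 47 contacts, which led away from PAX5. A TAD of 340 kb, from 237740001 to 238080000, began inside PAX5. It held the upper 45.5 kb of PAX5 and the whole of ZCCHC7, the neighbouring gene, and no loop. The rest of the PAX5 gene lay outside any TAD, and the next TAD below ended 4670 kb before this one began.

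SWAP70 had loops to both sides of a TAD edge. The gene covers 84.1 kb on chromosome 2 from 49721120 to 49805262 and began 1.12 kb inside a TAD of 250 kb (49720001 to 49970000) that also held LOC106509418 and WEE1, a kinase that holds back mitosis. From the lower end, 3881 bases inside its anchor, a loop of 475 kb ran away from the TAD to the bin from 49225001 to 49250000, with ends of ADM (adrenomedullin, a vasodilator peptide) and SBF2. The SWAP70 anchor of this loop, from 49700001 to 49725000, straddled the TAD edge and lay mostly in the gap below it. The loop had 64 contacts (49.3 to 81.7) against 28.7 expected, a ratio of 2.23 (1.72 to 2.85). SBF2 filled most of a neighbouring TAD of 510 kb, which ended 20 kb below the TAD of SWAP70. From the adjoining bin, which held only the body of SWAP70, a loop of 125 kb ran into the TAD to an end of LOC106509418. It had 137 contacts (115 to 162) against 76.1 expected, a ratio of 1.8 (1.51 to 2.13). The likeness of SWAP70 to LOC106509418 was 0.5 and to ADM 0.333.

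Adjoining bins of SWAP70 thus had loops in opposite directions, whereas those of BCL6 both had loops towards higher coordinates. The outward loop of SWAP70 had the highest FDR among the loops of the 9 genes. In the authors' deposited table each loop has 4 FDR values, and the largest of the 4 was 0.0846 for this loop. The largest in the authors' deposited table as a whole was 0.0999.

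**Figure D2:**
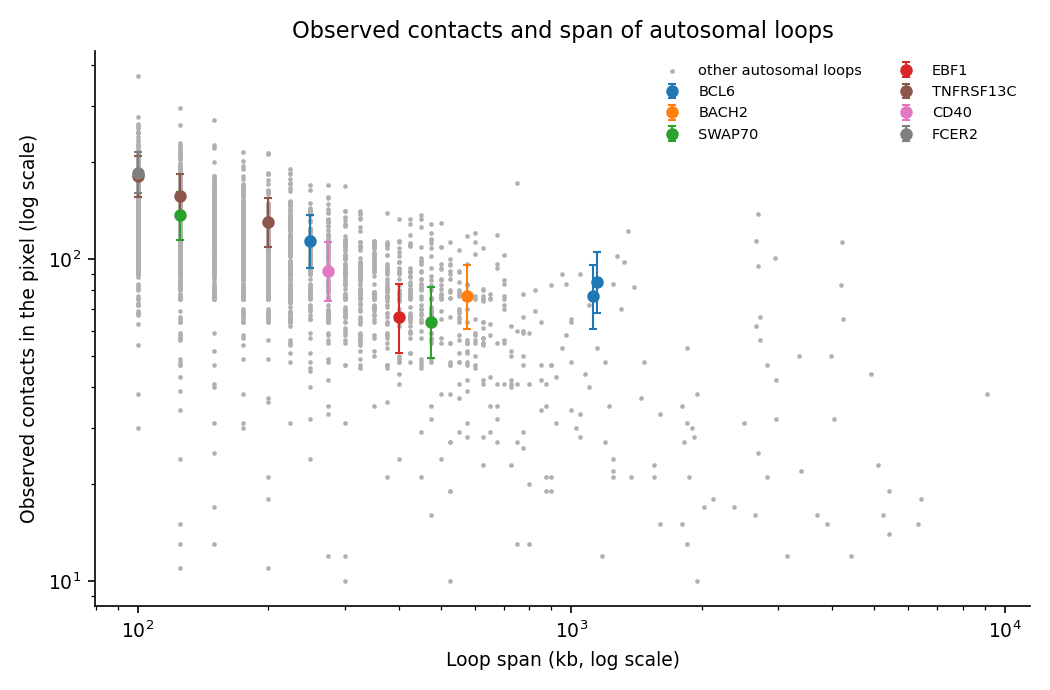
Observed contacts in the loop pixel (vertical axis, log scale) are plotted against loop span in kb (horizontal axis, log scale) for all autosomal loops in grey and the 12 loops of the 9 genes in colour, with 95% Poisson intervals. Contacts of listed loops fall with span. The BCL6 loops of 1125 and 1150 kb, with 77 and 85 contacts, lie above most of the 81 autosomal loops of 1000 kb or longer, a set not matched on span.

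Of the receptors, TNFRSF13C (the BAFF receptor) had 3 loops, all fanning out from a single bin. The gene is short, 3.59 kb on chromosome 5 from 6699812 to 6703403, and its lower end lay only 189 bases inside the anchor from 6675001 to 6700000. Most of the gene was therefore in the next bin, which was no anchor. CENPM, a centromere protein gene, lay wholly in the anchor and had the same 3 loops (Jaccard index 1), so these loops cannot be assigned to either gene. The loop of 100 kb had 181 contacts (155.6 to 209.4) against 92 expected, a ratio of 1.97 (1.69 to 2.28). It touched the pixel of the next loop and reached the bin with ends of SREBF2, the regulator of sterol synthesis, CCDC134 and MEI1. CCDC134 and MEI1 start at the same coordinate in the table, so their ends are not separate evidence.

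The loop of 125 kb reached the next bin, with the other end of CCDC134. It had 157 contacts (133.4 to 183.6) against 97.9 expected, a ratio of 1.6 (1.36 to 1.88), the lowest of the 12. The loop of 200 kb reached a bin with ends of C5H22orf46 and SNU13, a ribonucleoprotein of splicing and ribosome production. It had 131 contacts (109.5 to 155.4) against 64.2 expected, a ratio of 2.04 (1.7 to 2.42). The ratios of the 3 loops overlap in their intervals, so none stands apart. Their contacts, however, were above 90.4%, 76.4% and 82.1% of autosomal loops of like span, and each interval lay above the median of those loops. Their ratios were above 76.1%, 15.2% and 48.5% of the same loops.

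TNFRSF13C lay in a TAD of 200 kb from 6670001 to 6870000 with CENPM, SHISA8, SREBF2 and CCDC134, and the loop of 200 kb joined the edges of that TAD within 20 kb. The neighbourhood was crowded. It had 20 loops with both anchors within 1 Mb of the gene, where the median over protein-coding genes was 3 and the most for any gene was 21. For the other 8 genes the number was 2 to 8. A loop of 375 kb on the lower side, with 81 contacts, ended 24.8 kb from TNFRSF13C at SEPT3 and led to NFAM1, a receptor of B cell signalling.

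CD40, the receptor for T cell help, was joined to ELMO2 on chromosome 17. The gene lay from 48286116 to 48298188, wholly in its anchor, and the loop of 275 kb ended in the bin from 48550001 to 48575000. It had 92 contacts (74.2 to 112.8) against 53.2 expected, a ratio of 1.73 (1.39 to 2.12). The contacts equalled the median of the 376 autosomal loops of like span, and the ratio was above only 2.79% of them. It was the only loop of the 12 whose ratio interval did not reach the median ratio of like loops, here 2.14. ELMO2, a regulator of cell migration and engulfment, had no other loop (Jaccard index 1). CDH22 and SLC35C2 lay between the anchors. CDH22 had a loop of its own of 125 kb, with 154 contacts and a ratio of 2.19, which ended in the bin after the ELMO2 anchor. CD40 was in no TAD, 136.1 kb above one and 941.8 kb below the next.

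FCER2, the IgE receptor CD23, had the most contacts of the 12 loops. The gene lay on chromosome 2 from 71454046 to 71468149, wholly in its anchor, and the loop of 100 kb had 186 contacts (160.2 to 214.7) against 91.4 expected. The ratio was 2.03 (1.75 to 2.35), above 80.7% of the 1155 autosomal loops of like span, and the contacts were above 91.8% of them. The far bin, from 71550001 to 71575000, held no end of a protein-coding gene. TRAPPC5, PCP2 and MCEMP1, a membrane protein of mast cells, had ends in the FCER2 anchor and no other loop, so all 4 genes share it (Jaccard index 1). RETN, STXBP2, PET100, XAB2 and CAMSAP3 lay between the anchors. FCER2 lay in a stretch of 1180 kb without a TAD, 334 kb above the nearest.

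CD79A, the signalling chain of the B cell receptor, had neither loop nor TAD. The gene covers 3.18 kb on chromosome 6 from 49996116 to 49999294, with ARHGEF1 on one side and RPS19, a ribosomal protein gene, 3.9 kb away on the other. It lay in a gap of 450 kb between TADs. The nearest anchor was 171.1 kb below, in the body of POU2F2, which encodes the B cell octamer factor OCT2. From that anchor a loop of 175 kb, with 93 contacts and a ratio of 1.79, ran away from CD79A to a bin with ends of TMEM145, PRR19, PAFAH1B3 and CIC. The TAD of 220 kb that ends after POU2F2 stopped 166.1 kb short of CD79A.

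**Figure D3:**
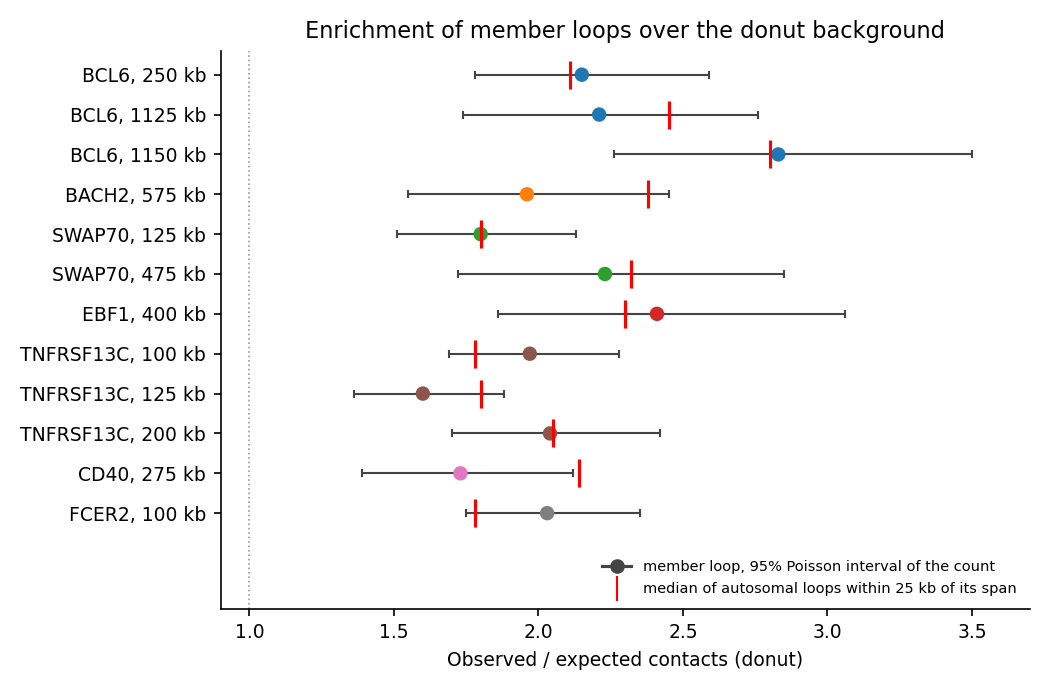
Points are the ratio of observed to donut-expected contacts for each of the 12 loops, with the 95% Poisson interval of the observed count as a bar, and red ticks are the median ratio of autosomal loops whose span was within 25 kb. The CD40 bar is the only one that does not reach its tick. For the BCL6 loops of 1125 and 1150 kb the tick rests on 5 and 4 loops, both of these BCL6 loops included in each.

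Across the 12 loops, the contact ratios were ordinary. They ranged from 1.6 to 2.83 with a median of 2.04, beside a median of 2 over autosomal loops, and 7 of 12 were at 2 or more, beside 50.2% of autosomal loops. Against loops of like span, 5 ratios were above the median and 7 below. Observed contacts ran from 64 to 186 with a median of 103, beside 109 for autosomal loops. The 12 loops made up 10 groups of touching pixels, so not all 12 are separate. Contacts were above the median of like loops in 9 of the 12, equal to it in 1 and below it in 2, the loop of EBF1 and the outward loop of SWAP70. The interval lay wholly above that median in 5, the 3 of TNFRSF13C, that of FCER2 and the longest of BCL6. Those of TNFRSF13C share a single anchor, which also holds CENPM. The longest of BCL6 had only 4 loops of like span, among them itself and the BCL6 loop that touches it. The spans were wide, from 100 to 1150 kb with a median of 262.5 kb, beside 175 kb for autosomal loops.

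**Figure D4:**
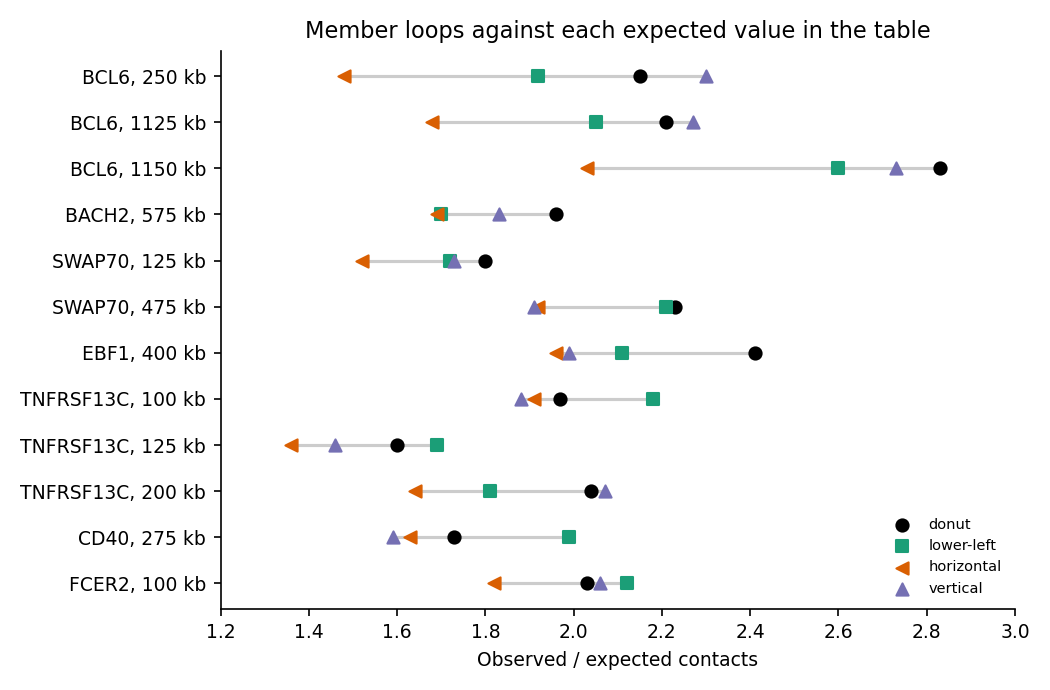
The same 12 loops are shown with the ratio of observed contacts to each of the 4 expected values in the table, which come from the donut, the lower left corner, the row and the column around the pixel. The horizontal markers of the BCL6 loops, at 1.48, 1.68 and 2.03, lie far to the left of their donut markers.

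Partners and domains differed among the genes. The far anchor held an end of another protein-coding gene in 7 of the 12 loops, beside 47.2% of all anchors, and these 7 loops belonged to BCL6, TNFRSF13C, CD40 and SWAP70. No far anchor held an end of another of the 9 genes. These genes lay on 7 chromosomes, and those sharing a chromosome were farther apart than the longest of the 12 loops. This outcome therefore says nothing about the genes. Of the 9, 3 lay wholly inside a TAD (TNFRSF13C, EBF1 and SWAP70), beside 26% of protein-coding genes. BCL6 straddled a TAD edge, PAX5 was cut by another, and CD40, FCER2, BACH2 and CD79A were in none. An end lay within 20 kb of a TAD edge in 2 of the 9, BCL6 and SWAP70, beside 18.7% of protein-coding genes. Of the 12 loops, 2 joined the edges of a TAD (the longest of BCL6 and of TNFRSF13C), beside 29.8% of autosomal loops. A further 6 lay inside a TAD, as did 1120 of the 3261 autosomal loops. Both anchors were outside any TAD in 3, as in 922 autosomal loops. The outward loop of SWAP70 had 1 anchor in a TAD, the one at ADM, as had 230 autosomal loops. None of the 9 genes was enclosed by a loop whose anchors missed it, beside 19.3% of protein-coding genes.

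The 9 genes were set in a wider list of 81 B cell genes in 5 roles, of which 77 matched a gene. This list too was chosen with earlier results of these data known, so its shares are descriptions with no test. It was not matched to all protein-coding genes on gene length. An end lay in an anchor for 22 of the 77 (28.6%), and for 15 of the 68 left without the 9 genes (22.1%), beside the 17.3% of all protein-coding genes. Of transcription factors 5 of 15 had an end in an anchor, of germinal centre genes 7 of 18, of B cell receptor and signalling genes 4 of 17, of surface coreceptors and markers 1 of 15, and of help and survival receptors 5 of 12. FCER2 was the one surface marker. With only the 1701 placed loops of lowest FDR, 9 of the 77 had an end in an anchor, beside 9.34% of all protein-coding genes. Of those listed genes, 3 were among the genes described here. An end lay within 20 kb of a TAD edge for 14 of the 77 (18.2%), beside 18.7% of all protein-coding genes. By role these were 3 of 15 transcription factors, 6 of 18 germinal centre genes, 2 of 17 receptor and signalling genes, 2 of 15 surface markers and 1 of 12 help and survival receptors. The median distance from a gene end to the nearest anchor was 26.8 kb over the list, 29 kb without the 9 genes, and 94.9 kb over all protein-coding genes.

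**Figure D5:**
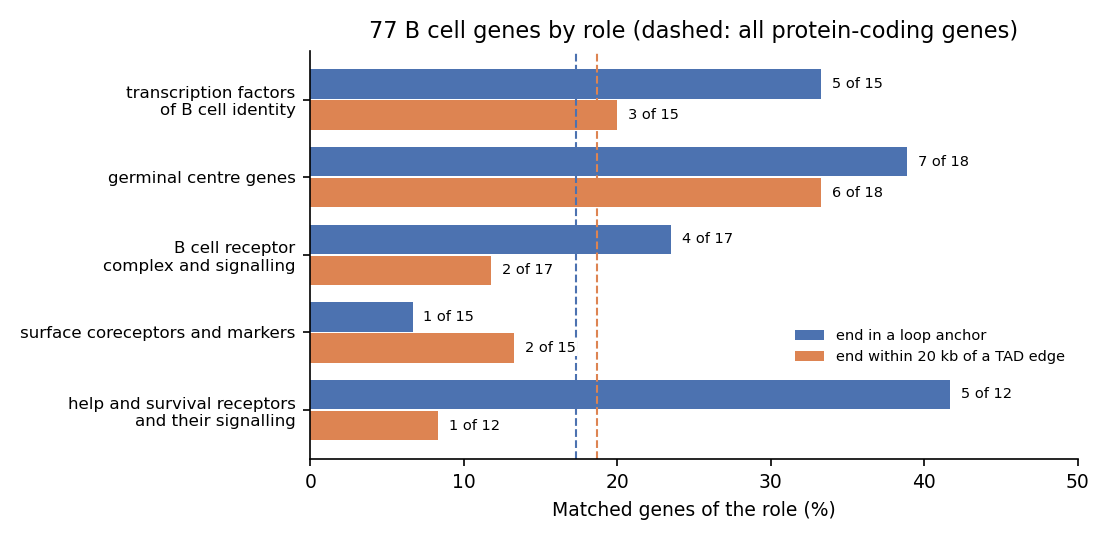
Bars give the percent of matched genes of each role with an end in a loop anchor (blue) or within 20 kb of a TAD edge (orange), with counts at the bar ends, and dashed lines give the same shares over all protein-coding genes, 17.3% and 18.7%. The blue bars of germinal centre genes, 7 of 18, and of help and survival receptors, 5 of 12, are the longest, and these roles include 4 of the 9 genes chosen on loops. The whole list was chosen with earlier results of these data known.

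Outside the 9 genes, IKZF1 (Ikaros), LMO2 and the survival gene BCL2 had the most loops at their ends, 3 each, with touching pixels counted singly. All 3 BCL2 loops left an anchor that also held an end of KDSR. IKZF1 and BCL2 each had a loop between their own ends, as EBF1 did, of 100 kb with 114 contacts and of 175 kb with 153 contacts. That made 3 of the 77 listed genes, a count noticed after the values were seen, beside the 0.302% given above for all protein-coding genes. All 3 are longer than 75 kb, and among protein-coding genes of 75 kb or longer the share was 1.51%. The 77 listed genes are of any length, so their count is not on a like footing with that share. EBF1 is also 1 of the 9 genes chosen with loops in view. UNG, which removes uracil after antibody gene mutation, BCL7A, the kinase LYN, DAPP1 and IL4R had 2 each. An end of IL4R and an end of IL21R, receptors of T cell cytokines, lay in opposite anchors of a loop of 100 kb with 137 contacts and a ratio of 1.57. The IL21R anchor also held an end of GTF3C1, so the loop cannot be assigned to IL21R alone. Listed genes that came closest to an anchor without an end in it were CXCR5 at 3.36 kb, POU2F2 at 4.77 kb, GNA13 at 8.09 kb, TNFRSF17 at 8.14 kb and ICOSLG at 9.12 kb. The kinase gene PRKCB had 6 loops in its body and none at its ends.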

How the data were processed

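Pig spleen was assayed by in situ Hi-C in 2 replicates. The submitters' processing notes list HiC-Pro 3.1.0, and juicer_tools 1.9.9 wrote the loop table, per the file headers. The deposited loop table gives observed contacts per pixel as raw counts, with 4 modelled expected values and 4 FDR values (q-values), per the file headers. The deposited TAD table gives positions only. The TAD caller, any pooling of replicates and the depth are unknown here. No header states the genome build. The scaffold names in the loop table are of the kind used by Sscrofa11.1, so that build was assumed, and gene positions relative to loops depend on it.

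Genes came from RefSeq (Sscrofa11.1), on 20 placed chromosomes, with gene spans but no strand, exons or UTRs. A loop belongs to a gene if a 25 kb anchor overlaps its span. Coordinates count from 1. Ratios are observed over expected contacts, and intervals leave out error in the expected value. Percentiles count ties as partly below and include the loop itself. The code (Python 3.11.15, pandas 2.3.3, scipy 1.17.1) was tested on simulated data. No test compared groups. A loop joined TAD edges if each edge, widened by 20 kb, met its anchor.

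The 9 genes and the lists were chosen with earlier results of these data known. The text names the 9 genes, genes in their anchors and domains, the genes sharing most loops with each, and listed genes with an end at 2 or more loops or, with no end in an anchor, nearest to one. Some genes outside this rule are named as well, among them PRKCB, SPIDR, MAP3K7 and NFAM1. The planned search for 5 motifs in promoters was not run, since it needs sequence. Some neighbouring loops of PAX5 and CD79A are not reported here.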

Additional observations from a re-analysis of the deposited data

How the results depend on the processing

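No paired analysis was possible because the tables are not split by replicate, and for the same reason no replicate could be left out. Loops limited by start site were not run, since the gene table has no strand. Most counts depended on how many loops were kept. In 1 setting only 1701 placed loops were kept, those whose largest of the 4 FDR values in the authors' deposited table was at or under 0.0111. This left the 9 genes 3 loops in place of 12, namely the longest of BCL6, the shortest of TNFRSF13C and that of FCER2. Some loops left out had a donut FDR below that limit, such as that of EBF1 at 0.00016. There, anchors met an end of 3 of the 9 genes in place of 7 (and of 9.34% of all protein-coding genes), and 2 loops had a gene end at the far anchor in place of 7. Of the 77 listed genes, 9 were at anchors in place of 22, and 3 of those were among the genes described here. Within 40 kb of a TAD edge, 4 of the 9 genes had an end in place of 2 (29.6% of all protein-coding genes). Against the horizontal expected value the median ratio of the 12 loops was 1.69 in place of 2.04. With anchors extended by 10 kb the 9 genes had 13 loops, with 1 pixel per group of touching pixels 10, and with gene ends only 11. With unknown depth, counts of 64 to 186 contacts set the precision.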
